A study of Mus musculus with 4 samples.

Results

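Genes for histone methylation and demethylation, histone deacetylation and Polycomb repression were followed in sorted cells of the mouse neural tube with and without PRDM13, a member of the PRDM family of PR domain and zinc finger factors. The genes were chosen by symbol from the deposited RPKM table, and 74 of its 24421 genes matched. They were placed in 13 groups by role: CoREST scaffolds, PRC2, the chromobox and Pcgf subunits of PRC1, the HP1 chromobox proteins, methyltransferases of H3K4 and of H3K9, other SET domain genes with *Dot1l*, demethylases, and 4 classes of deacetylases. A gene was tested where its mean RPKM reached 1 in either genotype, and 73 of the 74 passed. The exception was *Kdm4d*, a demethylase of methylated H3K9, at 0.0325, 0, 0.0231 and 0.0275 RPKM in the 4 libraries, from 1 read at most in each. The lowest of those tested was *Hdac9*, at a mean of 1.69 RPKM.

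The *Prdm13* GFP allele is a knockin that breaks *Prdm13*, so the sorted GFP+ cells are of the *Prdm13* lineage in both genotypes, and the controls carry 1 broken copy as well. GFP+ cells were sorted from neural tubes at E11.5. For the heterozygous mutant, *Prdm13* GFP/+, 7 embryos were pooled at the RNA level, and for the homozygous mutant, *Prdm13* GFP/GFP, 9 embryos. Each pool gave 2 polyA libraries. These are technical replicates, so each test below compares the pools and holds no variation between embryos. The libraries held 11774859 and 18727209 reads on genes (GFP/+) and 16710621 and 14133912 (GFP/GFP), as recovered from the RPKM values.

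Histone modifiers act largely in complexes. Polycomb repressive complex 2 (PRC2) methylates H3K27, and PRC1, with its chromobox and Pcgf subunits, compacts chromatin and ubiquitinates H2A, which together hold developmental genes silent in progenitors. Trithorax-type enzymes of the Kmt2 and Setd1 families methylate H3K4 at promoters and enhancers, the SUV39H, EHMT and SETDB enzymes methylate H3K9, which HP1 proteins bind, and histone deacetylases work within corepressor complexes such as CoREST, NuRD, SIN3 and NCoR. In the neural tube these enzymes are known for restraining neuronal genes in dividing progenitors and for keeping regional gene expression stable.

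Reads on *Prdm13* itself rose from 113.9 and 126.8 RPKM to 309.5 and 324.5 RPKM in *Prdm13* GFP/GFP (log2 fold change 1.40 ± 0.06 (SE), adjusted p = 3.63e-05). The allele is still transcribed, so these reads do not test the loss of the protein. Dorsal inhibitory markers fell (8 of 8 tested, median log2 fold change -2.48) and dorsal excitatory markers rose (7 of 7, median 2.11), so the pools differed widely in these markers. Fewer cells of a type and less RNA per cell cannot be told apart in bulk samples.

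The chromatin genes moved little beside this. In *Prdm13* GFP/GFP, 1 of the 73 rose (*Rcor2*) and 9 fell (*Hdac9*, *Cbx7*, *Kmt2c*, *Kmt2a*, *Kmt2e*, *Jarid2*, *Nsd1*, *Kdm2a* and *Suz12*) at an adjusted p under 0.05, from limma fitted to log2(RPKM + 0.1) over all 12046 genes tested with Benjamini-Hochberg adjustment. That is 1.37% higher and 12.3% lower, where 9.76% of all genes tested were called higher and 9.95% lower. In either direction it is 13.7%, against 19.7% of all genes. With the additional requirement of a 1.5-fold difference, only *Hdac9* was called (1.37% of the 73), against 6.33% of all genes (3.65% higher and 2.67% lower). The libraries of both genotypes did not overlap in 33 genes that were lower (45.2%) and 12 that were higher (16.4%) in *Prdm13* GFP/GFP, where 30.3% and 31.7% of all genes did not. The median log2 fold change of the 73 was -0.06, beside 0.01 over all genes, and 44 of them (60.3%) lay below 0, beside 47.6% of all genes. The log2 fold change was smaller than 0.2 in size for 60 of the 73, beside 8076 of all 12046 genes. On that scale the median standard error was 0.0614 over the 73 and 0.0700 over all genes.

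**Figure D1:**
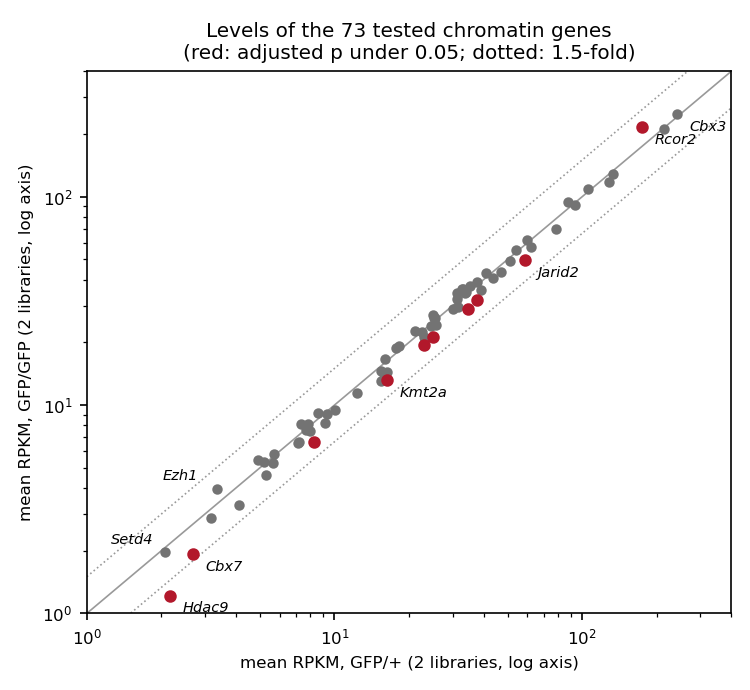
Mean RPKM of the 73 tested chromatin genes in *Prdm13* GFP/+ (x axis) and GFP/GFP (y axis), 2 libraries each, on log axes, with equal levels as a solid line, 1.5-fold differences as dotted lines and genes past an adjusted p of 0.05 in red. The points follow the diagonal from *Hdac9* at 1.69 RPKM to *Cbx3* at 245.4 RPKM, and *Hdac9* is the only red point outside the dotted lines.

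CoREST corepressors join the demethylase KDM1A and the deacetylases HDAC1 and HDAC2 to the repressor REST and to other factors, and the Rcor genes encode their scaffolds. *Rcor2* was the third most abundant of the chromatin genes, and the only one called higher. Its levels were 172.6 and 177.2 RPKM in *Prdm13* GFP/+ and 212.2 and 219.8 RPKM in *Prdm13* GFP/GFP. Both homozygous libraries lay above both heterozygous ones, a 1.24-fold difference (log2 fold change 0.30 ± 0.04 (SE), adjusted p = 0.00532, limma). The paralogs lay far lower: *Rcor1* was at 15.6 and 16.1 against 14.1 and 14.0 RPKM (log2 fold change -0.18, adjusted p = 0.0717), and *Rcor3* at 5.51 and 5.85 against 6.12 and 5.58 RPKM, with overlapping libraries. *Rcor2* thus made up 89.1% and 89.0% of the summed RPKM of the Rcor genes in the heterozygous libraries and 91.3% and 91.8% in the homozygous ones. The enzymes of the complex were not called: *Kdm1a*, which removes methyl groups from H3K4, was at 108.4 and 103.4 against 108.6 and 110.2 RPKM (adjusted p = 0.516), *Hdac1* at a log2 fold change of -0.04 and *Hdac2* at -0.02.

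**Figure D2:**
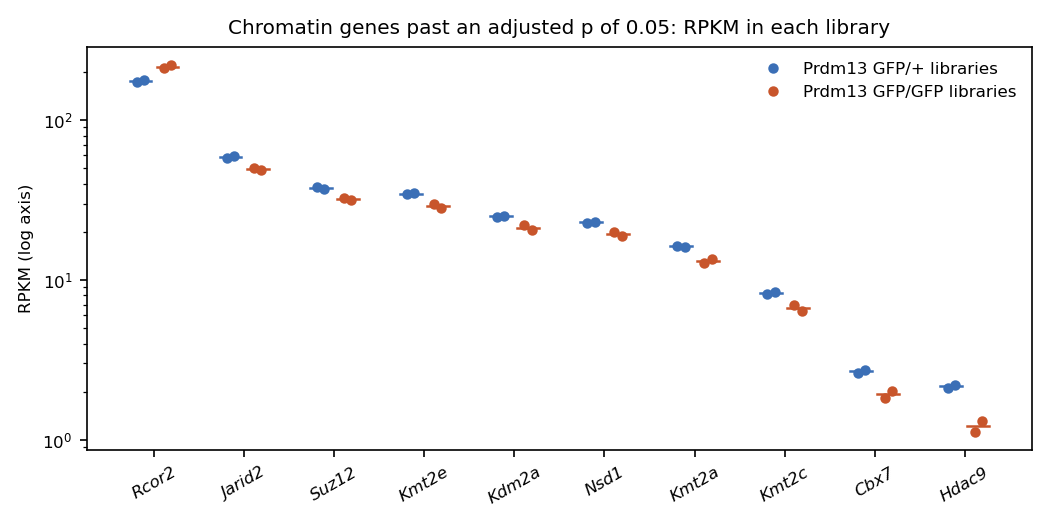
RPKM (log axis) of the 10 chromatin genes past an adjusted p of 0.05, each of the 2 libraries of *Prdm13* GFP/+ in blue and of GFP/GFP in orange, with the mean of each pair as a bar. The libraries of a genotype lie close together, *Rcor2* is higher in GFP/GFP, and the 9 others are lower, *Hdac9* with the widest gap.

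Class IIa deacetylases shuttle between nucleus and cytoplasm and act as signal-dependent corepressors, above all of MEF2 factors. *Hdac9* had the largest change of the 73 and was the only one past 1.5-fold. Its levels were 2.11 and 2.21 RPKM in the heterozygous libraries (265 and 440 reads) and 1.12 and 1.31 RPKM in the homozygous ones (198 and 195 reads). This is 1.72-fold lower (log2 fold change -0.78 ± 0.16 (SE), adjusted p = 0.0206, limma), with no overlap between the genotypes. *Hdac9* was also the least abundant of the class, with 3.36% and 3.21% of its summed RPKM in the heterozygous and 1.73% and 1.85% in the homozygous libraries. *Hdac5* carried most of the class, at 39.1 and 42.6 against 41.1 and 45.1 RPKM (adjusted p = 0.467). *Hdac7* (log2 fold change 0.10) and *Hdac4* (-0.19) had overlapping libraries too.

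The sequences before the starts of *Hdac9* and *Rcor2*, the gene with the largest fall and the only one that rose, are shown. That of *Suz12*, a PRC2 core gene that fell, is shown too. The dorsal bHLH factors whose activity PRDM13 represses, as the authors propose, bind E-boxes, written CANNTG. The authors found PRDM13 bound mostly at sites distal to gene starts, which these windows do not cover. The windows are the 250 bases before each RefSeq start on GRCm38.p6, printed 5′ to 3′ on the strand of the gene, with CANNTG in capitals. That pattern is its own reverse complement, so 1 strand covers both, and CAGCTG is 1 of its forms. The table held windows for 61 of the 74 genes and for 7 of the 10 that were called. An annotated transcript of *Rcor2* begins within its window, which is therefore printed for the first 181 bases only.
Hdac9, distal start, chr12:34917096-34917345, minus strand: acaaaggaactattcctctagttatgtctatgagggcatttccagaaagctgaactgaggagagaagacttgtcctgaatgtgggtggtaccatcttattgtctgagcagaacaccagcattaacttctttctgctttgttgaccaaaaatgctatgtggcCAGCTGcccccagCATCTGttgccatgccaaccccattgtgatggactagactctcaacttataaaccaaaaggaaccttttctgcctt
Hdac9, internal start, chr12:34528890-34529139, minus strand: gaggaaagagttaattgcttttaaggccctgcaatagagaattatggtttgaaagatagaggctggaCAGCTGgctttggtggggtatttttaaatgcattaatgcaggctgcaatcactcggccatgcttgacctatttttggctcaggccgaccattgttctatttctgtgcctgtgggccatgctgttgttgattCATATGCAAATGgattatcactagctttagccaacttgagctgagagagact
Rcor2, chr19:7267144-7267324, plus strand: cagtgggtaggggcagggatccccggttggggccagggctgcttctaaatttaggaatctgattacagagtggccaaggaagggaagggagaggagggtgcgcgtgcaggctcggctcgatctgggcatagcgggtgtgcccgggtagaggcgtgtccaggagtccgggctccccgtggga
Suz12, chr11:79992856-79993105, plus strand: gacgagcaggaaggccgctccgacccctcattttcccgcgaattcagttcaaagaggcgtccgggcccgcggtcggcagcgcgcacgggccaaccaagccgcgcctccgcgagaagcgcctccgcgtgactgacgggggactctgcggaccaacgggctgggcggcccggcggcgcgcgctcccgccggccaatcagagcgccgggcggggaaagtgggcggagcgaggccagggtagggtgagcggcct

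The distal *Hdac9* window held 2 CANNTG sequences and the internal one 3, with 1 CAGCTG in each. The *Rcor2* window had 1 E-box, which read CACGTG and lay within the bases not printed. The *Suz12* window had none of either pattern. Over all 32851 windows, 66.2% held at least 1 CANNTG and 13.0% a CAGCTG, and over the 83 windows of the chromatin genes 56.6% and 18.1% did. The windows of the genes shown also differed in CG dinucleotides, with 0 and 2 in those of *Hdac9*, 17 in *Rcor2* and 37 in *Suz12*. The medians were 6 over all windows and 21 over those of the chromatin genes. These matches describe the letters only. Binding was not analysed here.

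PRC2 is built from the methyltransferase EZH2 or EZH1 with SUZ12 and EED, and JARID2 is an accessory subunit that helps bring it to CpG-rich DNA. *Jarid2* and *Suz12* fell and the other 3 genes were not called. *Jarid2* was at 58.2 and 59.7 RPKM in *Prdm13* GFP/+ and 50.1 and 49.0 RPKM in *Prdm13* GFP/GFP, 1.19-fold lower (log2 fold change -0.25 ± 0.05 (SE), adjusted p = 0.0132). *Suz12* went from 37.9 and 37.1 RPKM to 32.3 and 31.8 RPKM, 1.17-fold lower (log2 fold change -0.23 ± 0.05 (SE), adjusted p = 0.0215). Neither gene overlapped between genotypes. *Ezh2*, the most abundant subunit, was at 131.9 and 124.2 against 118.9 and 117.1 RPKM, which did not overlap but missed the threshold (log2 fold change -0.12, adjusted p = 0.141), and *Eed* was at 32.3 and 30.7 against 30.5 and 28.5 RPKM (adjusted p = 0.311). *Ezh1*, the paralog typical of cells that no longer divide, lay higher, at 3.55 and 3.17 against 4.18 and 3.75 RPKM, also short of the threshold (log2 fold change 0.23 ± 0.11 (SE), adjusted p = 0.186). The ratio of *Ezh2* to *Ezh1* RPKM was 37.1 and 39.2 in the heterozygous libraries and 28.4 and 31.2 in the homozygous ones. The difference in this ratio was not tested.

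Of the PRC1 chromobox genes, whose products bind methylated H3K27, *Cbx7* fell. It was at 2.63 and 2.74 RPKM in *Prdm13* GFP/+ and 1.83 and 2.02 RPKM in *Prdm13* GFP/GFP, 1.38-fold lower (log2 fold change -0.46 ± 0.13 (SE), adjusted p = 0.0494), close to the threshold. *Cbx2*, the most abundant, lay at 31.8 and 34.1 against 35.1 and 37.4 RPKM without overlap (log2 fold change 0.14, adjusted p = 0.159). *Cbx6* and *Cbx8* had overlapping libraries, and exons of *Cbx6* share 563 bases with those of *Npcd* on the same strand, so its reads are not its own with certainty. The 6 Pcgf genes, which define the variants of PRC1, gave no call: their log2 fold changes ran from -0.14 (*Pcgf5*) to 0.09 (*Pcgf2*), with a median of 0.00. *Bmi1*, the most abundant of these and a regulator of progenitor self-renewal, was at 44.1 and 43.4 against 42.2 and 39.4 RPKM (adjusted p = 0.233).

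The HP1 genes were among the most abundant of all. *Cbx3* was at 249.4 and 233.9 against 255.0 and 243.2 RPKM, and reads of its annotated processed pseudogenes may be counted with it. *Cbx1* lay between 127.2 and 134.1 RPKM over the 4 libraries. *Cbx5* was lower without overlap, at 78.2 and 78.8 against 72.1 and 68.1 RPKM, and missed the threshold (log2 fold change -0.16, adjusted p = 0.0613).

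**Figure D3:**
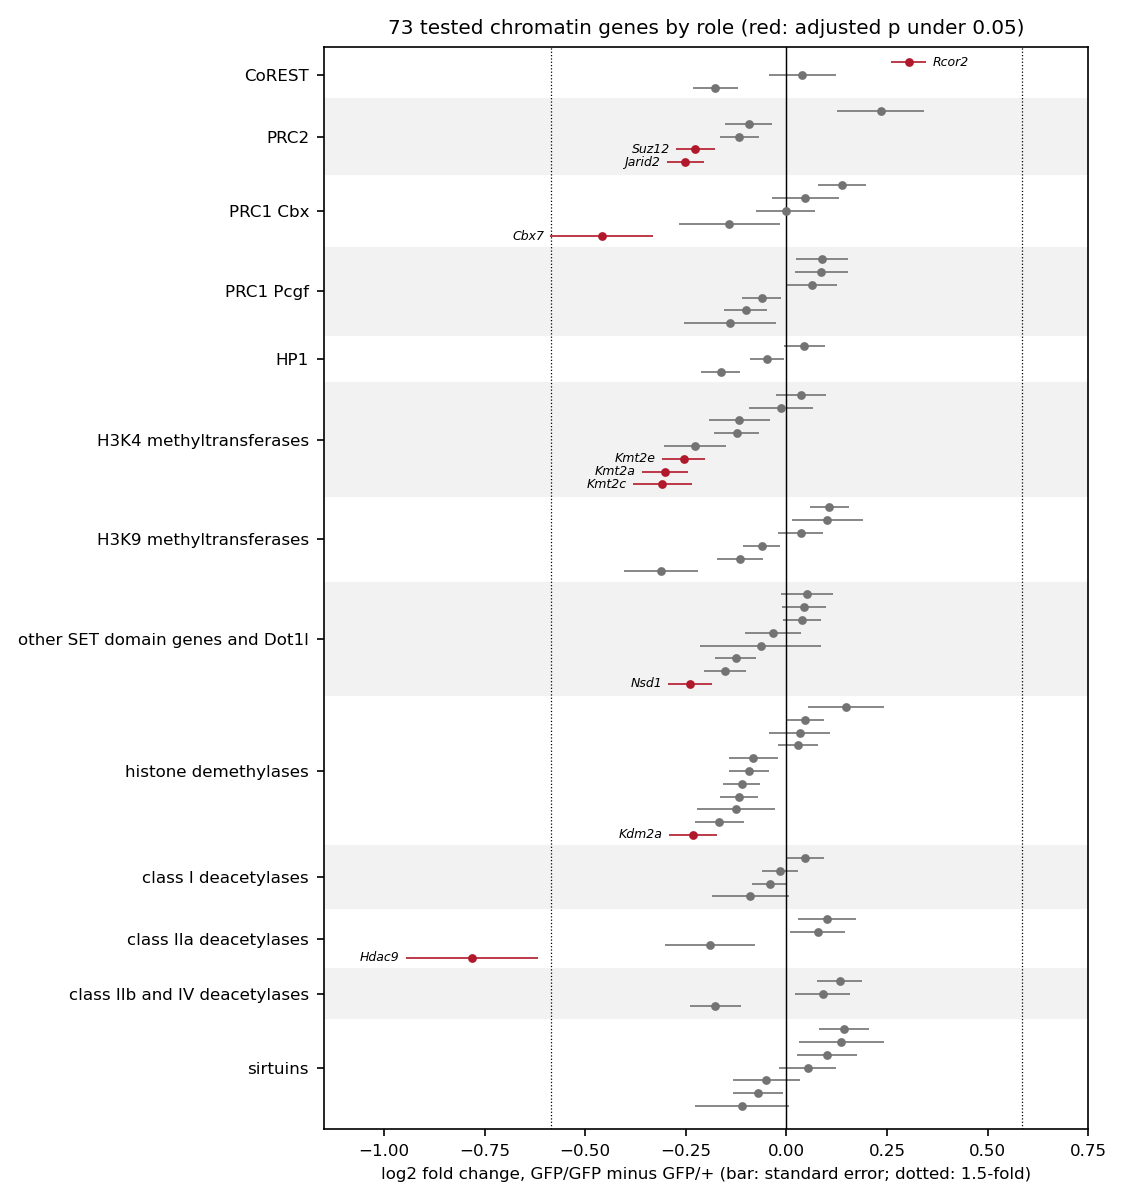
Log2 fold change (GFP/GFP minus GFP/+, x axis) with its standard error for the 73 tested chromatin genes, 1 row each, by role, with red for an adjusted p under 0.05 and dotted lines at 1.5-fold. All points but *Hdac9* and *Cbx7* lie between -0.31 and 0.30. PRC2 and the genes grouped as H3K4 methyltransferases hold 5 of the 9 genes called lower. The calls in the H3K4 methyltransferase group ended when the trend with exon length was removed.

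Among the 8 genes grouped as methyltransferases of H3K4, 3 fell and none rose, and 7 had a log2 fold change below 0. Their median was -0.18. The grouping follows gene families and does not show that each product, that of *Kmt2e* among them, has this activity. Over all genes 9.95% were called lower and 47.6% lay below 0, and among the longest genes 18.0% were called lower. None of the 3 calls was kept when a library was left out or when the trend of fold change with exon length was removed. *Kmt2a* encodes MLL1, which maintains Hox gene expression. It was at 16.4 and 16.2 RPKM in *Prdm13* GFP/+ and 12.8 and 13.5 RPKM in *Prdm13* GFP/GFP (log2 fold change -0.30 ± 0.06 (SE), adjusted p = 0.0152). *Kmt2c*, one of the paired enzymes that methylate H3K4 at enhancers, was at 8.17 and 8.42 against 6.94 and 6.43 RPKM (log2 fold change -0.31 ± 0.07 (SE), adjusted p = 0.0296). *Kmt2e* was the most abundant of the group, at 34.3 and 34.9 against 29.9 and 28.1 RPKM (log2 fold change -0.26 ± 0.05 (SE), adjusted p = 0.0207). The exons of *Kmt2e* share 972 bases with *Srpk2* on the opposite strand, and whether the counting used the strand is not given in the sources used here. In all 3 genes the genotypes did not overlap. Their closest relatives were not called: *Kmt2d*, the partner of *Kmt2c*, was at 7.27 and 8.09 against 7.38 and 7.83 RPKM (adjusted p = 0.931), and *Kmt2b*, the partner of *Kmt2a*, at 24.2 and 26.6 against 25.6 and 26.5 RPKM (adjusted p = 0.722). The difference between the members of each pair was not tested.

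No methyltransferase of H3K9 was called. The most abundant, *Ehmt2* (G9a), was at 80.9 and 94.6 against 88.7 and 99.2 RPKM (adjusted p = 0.456), and its libraries spread more within a genotype than between the means. *Setdb2* had the largest difference of the group, at 4.02 and 4.25 against 3.28 and 3.33 RPKM without overlap, but did not pass (log2 fold change -0.31 ± 0.09 (SE), adjusted p = 0.0592). *Suv39h1*, on the X chromosome, was at 25.1 and 25.0 against 27.2 and 26.7 RPKM (log2 fold change 0.11, adjusted p = 0.184).

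Of the remaining SET domain genes, *Nsd1*, which methylates H3K36, fell from 22.7 and 23.2 RPKM to 19.8 and 19.0 RPKM (log2 fold change -0.24 ± 0.05 (SE), adjusted p = 0.0266). *Setd2*, which adds the trimethyl mark to the same residue in transcribed genes, was lower without overlap but not called, at 23.4 and 22.9 against 20.6 and 21.1 RPKM (adjusted p = 0.0882). *Setd8*, named *Kmt5a* in RefSeq and the enzyme that monomethylates H4K20, was the most abundant, at 53.2 and 55.0 against 53.8 and 57.7 RPKM. *Dot1l*, the H3K79 methyltransferase, lay between 23.2 and 25.9 RPKM over all 4 libraries.

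In the demethylases, *Kdm2a*, which removes methyl groups from H3K36 and binds unmethylated CpG islands, was the only one called of 11 tested. It was at 24.7 and 25.2 RPKM in *Prdm13* GFP/+ and 22.1 and 20.4 RPKM in *Prdm13* GFP/GFP (log2 fold change -0.23 ± 0.06 (SE), adjusted p = 0.0388). Its paralog *Kdm2b*, a partner of PRC1, was at 33.2 and 34.3 against 34.0 and 34.7 RPKM. The other 10 demethylases ran from -0.17 (*Kdm7a*) to 0.15 (*Kdm8*) on the log2 scale.

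Class I deacetylases, which include the catalytic cores of nuclear corepressor complexes, gave no call. *Hdac2* was at 219.7 and 208.5 against 213.2 and 210.2 RPKM and *Hdac1* at 95.1 and 92.8 against 91.2 and 91.3 RPKM. *Hdac3*, the enzyme of the NCoR complex, was at 61.0 and 59.1 against 63.0 and 61.0 RPKM, and *Hdac8* had the largest log2 fold change of the class, at -0.09 (adjusted p = 0.559). Of class IIb and IV, *Hdac6*, a tubulin deacetylase encoded on the X chromosome, was at 31.7 and 31.0 against 33.0 and 35.6 RPKM (adjusted p = 0.157), and *Hdac11* at 15.7 and 17.0 against 14.7 and 14.2 RPKM (log2 fold change -0.18, adjusted p = 0.101). The 7 sirtuins, deacetylases that consume NAD, gave no call. The most abundant, *Sirt2*, was at 31.5 and 33.9 against 34.8 and 37.3 RPKM (log2 fold change 0.14, adjusted p = 0.159).

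The calls of genes that fell rested on all libraries together. When any 1 of the 4 libraries was left out, none of the 9 passed an adjusted p of 0.05, with values from 0.0501 (*Kmt2e*, without GFP/GFP replicate 1) to 0.196 (*Kdm2a*, without GFP/GFP replicate 2), although all 9 log2 fold changes stayed below 0. *Hdac9* then ranged from -0.89 to -0.68 on the log2 scale, with adjusted p from 0.0530 to 0.0769. The call of *Rcor2* was kept in 3 of the 4 fits and lost without GFP/GFP replicate 2 (log2 fold change 0.28, adjusted p = 0.0537). Fewer genes were called over the whole table in these fits too, 428 to 828 higher and 438 to 568 lower.

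Fold changes in these libraries also moved with the length and base composition of the transcript. Across the 12046 genes tested, Spearman's rho between log2 fold change and exon length was -0.26, and across the 73 chromatin genes -0.46. With GC content rho was 0.30 across the 11467 genes with a value, and 0.46 across the 73. Genes within these sets share the same 4 libraries and are not independent. Chromatin genes were long, with a median of 4142 bases of exon beside 2988 over all genes, and with all genes in 4 bins of equal size by length, 30 of the 73 were in the longest bin, from 4536 bases upwards. In that bin the median log2 fold change was -0.08 over all genes and -0.12 over the 30, and 18.0% of all genes were called lower. It also held 7 of the 9 chromatin genes that fell, all but *Suz12* and *Cbx7*. GC content moved with the difference between libraries of 1 pool too, in both genotypes. Between the lowest and highest of 4 equal GC bins, the median GFP/+ difference, replicate 1 minus 2, went from 0.04 to -0.09 (log2 scale). The median GFP/GFP difference, replicate 1 minus 2, went from 0.06 to -0.09. Over the bins of exon length the GFP/+ median stayed between -0.01 and 0.00. The GFP/GFP median went from -0.03 in the shortest to 0.02 in the longest.

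**Figure D4:**
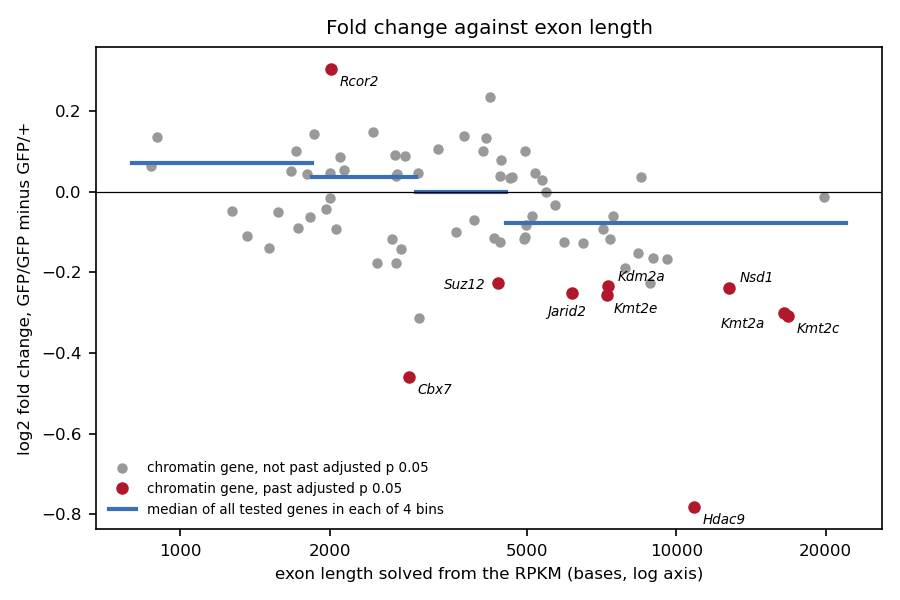
Log2 fold change (GFP/GFP minus GFP/+) of the 73 tested chromatin genes against exon length (log axis), red for an adjusted p under 0.05, with blue lines for the median of all tested genes in each of 4 bins of length. The blue medians step down from 0.07 to -0.08, and 7 of the 9 red genes below 0 lie in the longest bin.

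Removal of the exon length trend alone ended the calls of *Kmt2a*, *Kmt2c*, *Kmt2e*, *Nsd1* and *Kdm2a*. After the trends with GC content and exon length had both been removed from each library, the same 5 of the 9 genes were not called: *Kmt2a* (log2 fold change -0.10, adjusted p = 0.191), *Kmt2c* (-0.07, adjusted p = 0.455), *Kmt2e* (-0.13, adjusted p = 0.0542), *Nsd1* (-0.03, adjusted p = 0.668) and *Kdm2a* (-0.15, adjusted p = 0.0637). *Cbx7* (-0.53, adjusted p = 0.0115), *Hdac9* (-0.58, adjusted p = 0.0302), *Jarid2* (-0.19, adjusted p = 0.00656) and *Suz12* (-0.15, adjusted p = 0.0259) were still lower, and *Rcor2* still higher at 0.17 (adjusted p = 0.0240). The fold of *Hdac9* was then under 1.5. *Rcor1*, *Setd1b* and *Hdac11* were called lower in this fit, so that 1 chromatin gene was higher and 7 lower, with 25.4% of 11467 genes called in either direction. Both alternatives were chosen after the data had been seen.

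**Figure D5:**
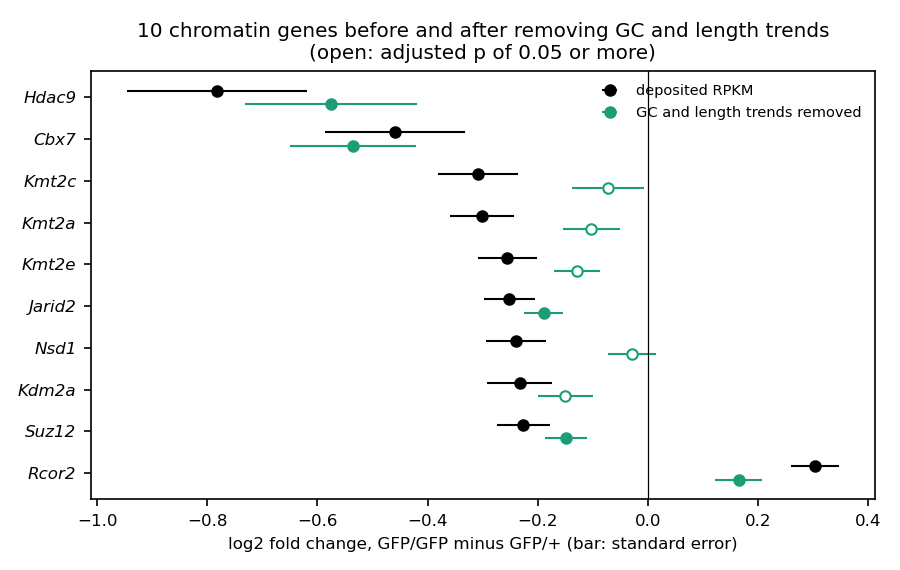
Log2 fold change with its standard error for the 10 called chromatin genes, from the deposited RPKM (black) and after removal of the trends with GC content and exon length (green), with open symbols for an adjusted p of 0.05 or more. *Kmt2a*, *Kmt2c*, *Kmt2e*, *Nsd1* and *Kdm2a* move towards 0 and turn open, while *Hdac9*, *Cbx7*, *Jarid2*, *Suz12* and *Rcor2* stay filled.

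Markers of other states moved with genotype as well, and their part in the results above was not tested. Over all genes tested, 9.76% were called higher and 9.95% lower. Of 42 S phase genes 12 fell and none rose (median log2 fold change -0.16), and of 51 G2/M genes 33 fell and none rose (median -0.30), their summed levels going from 2780 and 2708 to 2358 and 2351 RPKM. Of 13 pan-neuronal genes 8 rose and 2 fell (median 0.23), with sums of 2015 and 2076 against 2562 and 2673 RPKM, and of 14 progenitor genes 4 rose and 4 fell. Markers of dorsal root ganglion and neural crest summed to 79.4 and 84.1 against 51.0 and 51.9 RPKM, with 1 of 6 tested higher and 4 lower. Markers of 3 further cell types were mostly below the filter. Of 6 endothelial markers none was tested (sum of 2.41 RPKM at most), of 7 mesenchymal ones 1 (sum of 5.32 at most) and of 9 erythroid ones 3 (sum of 49.7 at most, with 4 adult globins listed at 0), and none of the 4 tested was called. The pools also differed in sex markers: *Xist* was at 22.4 and 21.6 against 6.55 and 6.03 RPKM, and 4 Y-linked genes summed to 37.6 and 36.3 against 50.7 and 50.7 RPKM. Sex and genotype therefore cannot be told apart for X-linked genes. None of the 3 X-linked chromatin genes (*Suv39h1*, *Hdac6* and *Hdac8*) was called.

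Partners of the same complexes that the symbol rule left out were gathered in 10 lists of 79 genes. Of the 77 tested, 3 rose and 14 fell, where 9.76% of all genes tested rose and 9.95% fell, and the median log2 fold change was -0.04, beside 0.01 over all genes. Of 6 accessory subunits of PRC2, 1 rose and 1 fell. *Phf19*, which binds methylated H3K36 and helps to recruit PRC2, was the only partner past 1.5-fold, at 1.48 and 1.44 RPKM in the heterozygous libraries (64 and 99 reads) and 0.674 and 0.703 RPKM in the homozygous ones (41 and 36 reads) (log2 fold change -0.99 ± 0.22 (SE), adjusted p = 0.0246). *Phf19* passed the RPKM filter only through *Prdm13* GFP/+, where it is high, so its place among the genes tested was not independent of its difference. With no filter its adjusted p was 0.0303. Without GFP/+ replicate 1, GFP/GFP replicate 1 or GFP/GFP replicate 2 its adjusted p was 0.0622, 0.0680 and 0.0714. The other PRC2 gene called, *Phf1*, a relative of *Phf19*, rose from 10.1 and 11.2 to 12.5 and 13.1 RPKM (adjusted p = 0.0469).

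In PRC1, the ubiquitin ligase gene *Ring1* rose from 13.59 and 14.97 to 17.02 and 18.47 RPKM (log2 fold change 0.31, adjusted p = 0.0292), while *Rnf2*, the more abundant ligase, was at 48.4 and 49.9 against 52.4 and 48.0 RPKM. *Auts2* (log2 fold change -0.44) and *Scmh1* (-0.31) fell. Of the 8 demethylases and other JmjC genes on the partner list 3 fell, namely *Jmjd1c* (-0.44), *Kdm6a* (-0.30), an X-linked H3K27 demethylase, and *Kdm5a* (-0.28). The Y-linked relatives *Kdm5d* and *Uty* were not on that list and lay higher, *Kdm5d* at 0.45 (adjusted p = 0.00496) and *Uty* at 0.20 (adjusted p = 0.215). In NuRD *Gatad2b* (-0.36) and *Chd3* (-0.19) fell, in NCoR *Tbl1x* (-0.41), among the COMPASS partners *Hcfc1* (-0.22), among CoREST and REST partners *Zmym2* (-0.18) and among H3K9 partners *Uhrf1* (-0.18). *Uhrf1* was also on the S phase list and is counted among the genes of that list that fell. *Tbl1x* and *Hcfc1* are X-linked, like *Kdm6a*, and the pools differed in *Xist* and Y-linked levels. *Rest* itself, the repressor that recruits CoREST to neuronal genes, was at 7.01 and 7.34 against 6.86 and 6.82 RPKM (adjusted p = 0.533). The 5 SIN3 genes gave no call. Of 11 other methyltransferases, *Prmt1* rose (0.16) and *Ash1l* (-0.25) and *Whsc1* (-0.23) fell. Several partners that fell were in the longest bin of exon length, where 18.0% of all genes were called lower. Among these were *Whsc1* (12796 bases), *Ash1l* (11270), *Kdm5a* (10969) and *Jmjd1c* (8947), while *Gatad2b* (1906) and *Tbl1x* (2302) were shorter. Of the partners, only *Phf19* was followed in the alternative fits.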

How the data were processed

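RNA-seq libraries of sorted GFP+ cells (2 per genotype, from 1 RNA pool each) were grouped by the submitters' labels. The authors aligned reads with TopHat2 2.1.0 to mm10, assigned them to RefSeq genes in featureCounts, and deposited RPKM (reads scaled by exon length and library size) after TMM normalization in edgeR 3.6.8. The authors' RPKM were used as deposited. Whole reads and exon lengths were solved from the RPKM steps for all 19200 genes above 0 (tolerance 0.0002 reads), and 72.0% of 17450 lengths lay within 5% of an annotated one. Recovered reads are fixed up to a common whole factor, and a count of 0 allows up to 3 reads.

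Genes whose mean reached 1 RPKM in 1 genotype or both were tested two-sided with lmFit and eBayes (trend) from limma 3.58.1 in R 4.3.3 on log2(RPKM + 0.1), with Benjamini-Hochberg adjustment over all 12046. Because the deposited unit is RPKM, no count model was the main test. A single-gene permutation of 2 against 2 libraries cannot go below p = 0.333. Fits were tested on simulated data first. Tables used Python 3.11.15, pandas 2.3.3 and numpy 2.4.6, and plots matplotlib 3.10.9.

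Genes named were every gene of the set past an adjusted p of 0.05, the most abundant and the most changed of each role, those beside the RPKM filter, and partners past both thresholds. Further names were picked with values in view. The values of 1 gene of the set are not reported here, though it is included in the counts. The set, the partner lists and the marker lists (progenitor, pan-neuronal, S phase, G2/M, endothelial, erythroid, mesenchymal, dorsal inhibitory and excitatory, dorsal root ganglion with neural crest, Y-linked and *Xist*) were chosen with earlier results of these data known. Positions and promoter windows are those of RefSeq on GRCm38. Alternatives were pseudocounts of 1 and 0.01, no filter, a filter in all libraries, median ratio scaling, quantile normalization, eBayes without a trend, a replicate block, limma voom on recovered reads, leaving out each library, and, added after seeing the data, removal of the trend with exon length alone or with GC content and exon length (lowess, span 0.3).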

Additional observations from a re-analysis of the deposited data

How the results depend on the processing

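Of 11 alternatives other than leaving out a library, *Rcor2* and *Hdac9* kept their calls in all 11, *Cbx7*, *Jarid2* and *Suz12* in 10, *Kmt2a* in 9, *Kmt2e* and *Nsd1* in 8, and *Kmt2c* and *Kdm2a* in 7. The 9 chromatin genes that fell became 4 with eBayes without a trend and 14 with limma voom on the recovered reads, and 0 in each fit without 1 library, where the number that rose was 0 to 1. The 1 gene past 1.5-fold became 0 with a pseudocount of 1, 0 after removal of the GC and exon length trends, and 0 without any 1 library. A pseudocount of 1 shrinks the fold change of low genes by construction. The causes of the other changes were not tested.

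The replicate number as a block gave 2 chromatin genes higher and 11 lower, and 1685 genes higher and 1515 lower over all, in place of 1176 and 1199. Deviations of same-numbered libraries had a correlation of 0.05 over 12046 genes, and the numbers were not taken as pairs. By GC content, though, both genotypes ran alike. From the lowest to the highest GC bin, the median of replicate 1 minus replicate 2 went from 0.04 to -0.09 in GFP/+. In GFP/GFP it went from 0.06 to -0.09. The correlation over all genes therefore does not show that replicate number had no shared effect.

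Alternatives were run for the genes named by the rule, and among these signs turned only in genes that were not called: *Cbx3* (-0.0384) and *Kdm1a* (-0.0288) with quantile normalization, *Cbx3* (-0.00712) without the length trend, and *Cbx5* (0.0104), *Hdac2* (0.0011) and *Hdac5* (-0.0073) without the GC and length trends. Over the fits without 1 library, log2 fold changes of such genes crossed 0 in *Cbx3* (-0.00186 to 0.0901), *Ehmt2* (-0.0112 to 0.2144), *Hdac2* (-0.0535 to 0.0219), *Hdac8* (-0.2096 to 0.0309) and *Setd8* (-0.00793 to 0.0942). The median log2 fold change of the chromatin genes stayed below 0 throughout, from -0.08 to -0.02. Some genes short of the threshold passed it elsewhere: *Ezh2* with quantile normalization (adjusted p = 0.0454), *Cbx5* with quantile normalization (0.0293), the replicate block (0.0292) and voom (0.00678), *Setdb2* with eBayes without a trend (0.0402), voom (0.0420) and the length trend removed (0.0408), *Sirt2* with the replicate block (0.0469), and *Hdac11* with the GC and length trends removed (0.0130). A library left alone in its genotype was assumed to vary like the other pair. Depth limits the low genes, and *Hdac9* and *Cbx7* were among the 3 least abundant of the 73 tested.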
